A study of Mus musculus with 5 samples.

Results

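A set of 10 genes of the response to cyclic AMP (cAMP), the second messenger through which thyroid-stimulating hormone (TSH) acts, were followed in cell lines from BrafV600E-driven mouse thyroid tumors. They were chosen by symbol and are Nr4a1, Nr4a2, Nr4a3, Crem, Per1, Sik1, Pde4b, Pde4d, Rgs2 and Gnas, 10 of the 17923 genes listed in at least 1 library. All 10 were listed, 9 passed a filter on low counts, and Nr4a3 was kept although it did not pass. RNA was sequenced in 2 libraries labelled BVE-Ctnnb1wt (wt 1 and wt 2) and in 3 labelled BVE-Ctnnb1null (null 1, null 2 and null 3). Both groups are described as carrying BRAFV600E. The null group is also described as carrying a deletion of Ctnnb1, the gene of β-catenin, whose RNA values are given below. Both wt libraries came from the line BVE at passage 20, wt 1 without and wt 2 with TSH. Null 1 came from the line BVECTN_4 at passage 8 without TSH, null 2 from BVECTN_4A at passage 11 and null 3 from BVECTN_5 at passage 7, with TSH not stated in the labels of null 2 and null 3. The protocol text differs, with about 25 passages of wt cells, 20 of null cells and 4 mU/mL bovine TSH in the medium. The wt group is thus 1 line, so that effects of genotype, line and passage number cannot be told apart. The 2 wt libraries also differ by TSH, so the spread within the wt group holds any effect of TSH. Total estimated counts lay between 29360002 in null 2 and 30713079 in wt 2, and a count of 0 allows up to 3 counts, for counting error only. CPM below means counts scaled to the library's total after its correction by a TMM factor, which was 0.842 and 0.735 for wt 1 and wt 2 and 1.085, 1.221 and 1.219 for null 1, null 2 and null 3. These factors raise the wt libraries relative to the null libraries, and results that turn with them are also given on library totals alone.

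TSH binds a receptor on thyroid follicular cells that is coupled to the stimulatory G protein, whose α subunit is a product of Gnas. Adenylyl cyclase then makes cAMP, protein kinase A is released, and the transcription factor CREB and its coactivators switch on genes with cAMP response elements, among them the Nr4a nuclear receptors, Crem, Per1 and Sik1. Phosphodiesterases such as Pde4b and Pde4d break cAMP down and Rgs2 damps G protein signaling, so that several of these genes act back on the pathway. In the thyroid this signal is known for driving thyroglobulin and iodide uptake.

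The genes of the hormone's own route were checked first. Tshr, the TSH receptor, had 5 and 3 counts in wt 1 and wt 2 and 1, 14 and 2 counts in null 1, null 2 and null 3. It was therefore at or close to the limit of 3 counts in 4 libraries, the one grown with TSH included, while null 2 had the most. Of 8 thyroid follicular markers, between 2 and 4 reached an FPKM (fragments scaled to transcript length and library total) of 1 in a library, led by Nkx2-1 in wt 1, wt 2 and null 2 and by Pax8 in null 1 and null 3. Their summed FPKM was 15.25 and 20.61 in wt 1 and wt 2 and 35.02, 68.54 and 4.83 in null 1, null 2 and null 3. Foxe1, a follicular transcription factor, did not exceed an FPKM of 0.09 in any library. The label of thyroid epithelial cells therefore rested on different genes in different libraries, since Pax8 was at 0.40 and 0.17 in wt 1 and wt 2, Nkx2-1 was at 0.26 in null 3, and Hhex, at 1.08 or more, was the 1 marker above 1 in all 5. In no wt library nor in null 3 did these 3 genes all reach 1, and Tshr and Tg were under an FPKM of 1 in every library, while Slc5a5, the iodide transporter, had 1.03 in wt 1, 6.48 in null 1 and less elsewhere.

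The libraries also stood apart in the markers of other cell states. Epcam, an epithelial adhesion molecule, had an FPKM of 5.04 and 4.61 in wt 1 and wt 2, 152.05 in null 1 and 59.60 in null 3, and was not listed in null 2, nor was Cdh1 (E-cadherin). The 6 epithelial markers summed to an FPKM of 1073 and 1742 in wt 1 and wt 2 and to 12066, 706 and 1204 in null 1, null 2 and null 3, with a keratin as the most abundant gene in each library. Null 1 thus had by far the highest sum and null 2 the lowest, although single keratins differed, with Krt8 lowest in null 3. The 8 fibroblast or mesenchymal markers summed to 1768 and 3661 in wt 1 and wt 2 and to 86.7, 3012 and 2713 in null 1, null 2 and null 3, with Vim the most abundant in every library. Dcn and Thy1, which mark fibroblasts more narrowly, had an FPKM of 84.66 and 88.47 in null 3 and at most 0.24 elsewhere. The 4 endothelial and 5 leukocyte markers summed to an FPKM of at most 0.66 and 0.02, and the 3 C cell markers to at most 1.11. In these bulk libraries fewer cells of a type and less RNA per cell cannot be told apart. Ctnnb1 itself (NCBI gene 12387) had an FPKM of 59.29 and 73.75 in wt 1 and wt 2. It had 124.58, 196.26 and 117.82 in the libraries labelled null 1, null 2 and null 3. In FPKM its RNA was thus higher under the null label, as was that of 35.9% of all genes tested. In CPM the groups overlapped, with null 3 (343.85) below wt 2 (356.31). The log2 fold change of Ctnnb1 was 0.55 ± 0.44 (standard error) with an adjusted p of 0.516 from edgeR, and values summed over whole transcripts do not show whether the deleted exons were read.

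The 3 Nr4a genes are classic targets of CREB, which binds the cAMP response element TGACGTCA or its shorter form TGACG, and their upstream sequences are shown for that reason, with that of Rgs2, the member that varied most. Each is the 250 bases before the RefSeq start on the gene's strand (build GRCm38.p6), at chr15:101266596-101266845 on the plus strand for Nr4a1, chr2:57124004-57124253 on the minus strand for Nr4a2, chr4:48045055-48045304 on the plus strand for Nr4a3 and chr1:144004150-144004399 on the minus strand for Rgs2. Capitals mark TGACG or its reverse complement CGTCA.
Nr4a1: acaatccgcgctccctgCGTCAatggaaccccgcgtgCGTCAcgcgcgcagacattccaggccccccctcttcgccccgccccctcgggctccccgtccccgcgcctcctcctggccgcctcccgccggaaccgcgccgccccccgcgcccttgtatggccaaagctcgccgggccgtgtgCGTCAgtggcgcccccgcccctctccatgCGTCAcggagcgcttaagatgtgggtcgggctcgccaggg
Nr4a2: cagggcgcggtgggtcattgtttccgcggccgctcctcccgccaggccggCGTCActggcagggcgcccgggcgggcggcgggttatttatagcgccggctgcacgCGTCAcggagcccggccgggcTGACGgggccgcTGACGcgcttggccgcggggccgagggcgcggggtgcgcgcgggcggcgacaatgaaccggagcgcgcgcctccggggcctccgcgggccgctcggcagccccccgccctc
Nr4a3: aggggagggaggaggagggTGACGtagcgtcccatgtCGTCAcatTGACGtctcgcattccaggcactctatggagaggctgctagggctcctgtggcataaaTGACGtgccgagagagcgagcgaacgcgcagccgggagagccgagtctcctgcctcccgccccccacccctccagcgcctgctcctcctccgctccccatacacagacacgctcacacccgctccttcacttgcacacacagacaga
Rgs2: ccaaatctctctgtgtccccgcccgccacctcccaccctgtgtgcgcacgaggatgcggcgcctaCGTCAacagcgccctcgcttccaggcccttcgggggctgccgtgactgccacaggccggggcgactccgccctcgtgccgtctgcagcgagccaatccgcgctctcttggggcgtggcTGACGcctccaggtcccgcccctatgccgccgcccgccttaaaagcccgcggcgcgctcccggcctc
Each of the Nr4a sequences held 4 matches, at 233, 213, 69 and 40 bases before the start in Nr4a1, at 200, 144, 123 and 111 in Nr4a2 and at 231, 213, 205 and 147 in Nr4a3. At least 4 matches were found in 45 of 32851 such windows of all genes (0.137%). Rgs2 held 2 matches, at 185 and 67 bases, and at least 2 were found in 3.9% of all windows. Of the members, 8 had a window in the table and 7 of them held TGACG in at least 1 window, or 10 of their 15 windows against 17.8% of all windows. For Gnas 2 of these windows overlap by 231 bases and share 1 match. The full TGACGTCA, which contains TGACG, was in 0 of the 15 member windows and in 1.55% of all windows, and CCAAT (or ATTGG on the other strand) was in 5 of the 15 and in 33.8% of all. These matches describe letters in a window and were not set against any binding data.

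**Figure D1:**
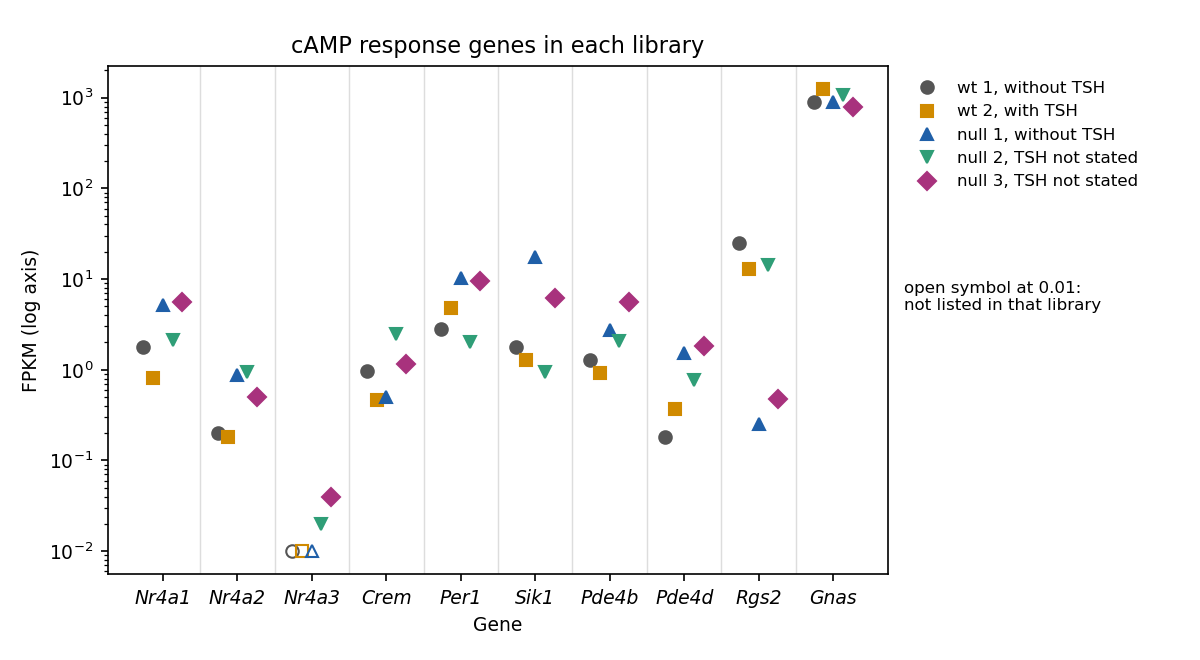
FPKM on a log axis of the 10 cAMP response genes, with 1 symbol for each of the 5 libraries and open symbols at 0.01 where a gene was not listed. Nr4a1, Per1, Sik1, Pde4b and Pde4d were highest in null 1 and null 3. Rgs2 was lowest there (0.25 and 0.48) and lay between 12.91 and 24.69 in the other libraries.

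Among the nuclear receptors, Nr4a1, an early-response transcription factor, had an FPKM of 1.77 and 0.81 in wt 1 and wt 2 and 5.12, 2.14 and 5.60 in null 1, null 2 and null 3. Nr4a2, its relative, had 0.20 and 0.18 in wt 1 and wt 2 and 0.87, 0.95 and 0.50 in null 1, null 2 and null 3. All 3 null libraries exceeded both wt libraries for both genes in FPKM, as they did for 35.9% of all genes tested. For Nr4a1, however, null 2 (4.47) lay below wt 1 (5.38) in CPM after TMM scaling. Nr4a3 had 0 counts in wt 1, wt 2 and null 1, 1 in null 2 and 2 in null 3, so that with 4 TGACG matches upstream, as many as its relatives, it was at or under the limit of 3 counts in each library and no fold is given.

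Crem encodes both activators and repressors that bind cAMP response elements. Its FPKM was 0.98 and 0.46 in wt 1 and wt 2 and 0.50, 2.49 and 1.17 in null 1, null 2 and null 3. Null 2 was highest and the groups overlapped. The counts were spread over 13 RefSeq transcripts, of which 0 were listed in all 5 libraries, so its activator and repressor forms could not be compared at a depth of 34 to 167 counts. Per1, a repressor of the circadian clock that also answers cAMP, had an FPKM of 2.81 and 4.82 in wt 1 and wt 2 and 10.37, 2.01 and 9.50 in null 1, null 2 and null 3. Its 2 transcripts, 4648 and 4663 bases long, held its counts in uneven shares. The shorter one took 100.0% and 0.0% of the FPKM in wt 1 and wt 2 and 0.0%, 2.5% and 76.7% in null 1, null 2 and null 3. Only the sum of both was used.

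Sik1, a kinase that holds CREB coactivators in the cytoplasm and so acts back on the response, followed the same order of libraries as Per1 at the top. Its FPKM was 1.76 and 1.29 in wt 1 and wt 2 and 17.49, 0.95 and 6.18 in null 1, null 2 and null 3. Null 1 was 20.7-fold above null 2 in CPM, and both wt libraries lay between them. Nr4a1, Per1 and Sik1 thus shared null 1 and null 3 as their highest libraries, as did Pde4b and Pde4d, described next. Of the epithelial markers Epcam, Cdh1, Krt7 and Krt19 were also highest in these 2 libraries, while Krt8 and Krt18 were not and the sum of the 6 in null 3 was below that in wt 2. The part of these markers in the levels was not tested.

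Pde4b and Pde4d encode enzymes that degrade cAMP. Pde4b had an FPKM of 1.29 and 0.93 in wt 1 and wt 2 and 2.77, 2.07 and 5.60 in null 1, null 2 and null 3. Pde4d had 0.18 and 0.37 in wt 1 and wt 2 and 1.53, 0.77 and 1.81 in null 1, null 2 and null 3. For both genes the null libraries exceeded the wt libraries without overlap in FPKM and in CPM, as they did for 35.9% and 22.6% of all genes tested, although null 2 (6.53) was close to wt 1 (6.01) for Pde4b in CPM. Most of the Pde4b signal lay on 2 transcripts. The shorter of them, of 3482 bases, held 48.8% and 66.7% of the gene's FPKM in wt 1 and wt 2 and 77.3%, 50.2% and 68.0% in null 1, null 2 and null 3, so that its share was lowest in wt 1 and null 2 and did not separate the groups.

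Rgs2, a regulator that speeds the shut-off of G proteins, had the widest range of the 10 genes. Its FPKM was 24.69 and 12.91 in wt 1 and wt 2, 14.43 in null 2, 0.25 in null 1 and 0.48 in null 3. In counts this was 2296 and 1213 in the wt libraries and 1287 in null 2, against 23 in null 1 and 43 in null 3. The highest library was 126-fold above the lowest in CPM. Null 2 lay within the range of the wt libraries in FPKM and on library totals, and below both of them in CPM with TMM factors (35.92 against 89.58 and 53.74). Rgs2 was lowest in the 2 null libraries where Sik1, Per1, Nr4a1, Pde4b and Pde4d were highest. By the rule of nearest pattern, over 10827 genes with a mean FPKM of at least 1 and 5 libraries, the genes most like Rgs2 were Crmp1, Cdh26, Gfra2, Kcnk10 and Clca3a1. They differed from it by a root mean square of 0.52 to 0.78 in centered log2(FPKM + 0.1), against a range of 6.15 for Rgs2 itself. Gfra2, a receptor for ligands of the GDNF family, had an FPKM of 13.37 and 10.39 in wt 1 and wt 2, 12.75 in null 2, 0.29 in null 1 and 0.97 in null 3. This likeness was chosen from the values and carries no test.

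Gnas, which encodes the stimulatory α subunit, was the most abundant member per length. Its FPKM was 898 and 1245 in wt 1 and wt 2 and 905, 1076 and 791 in null 1, null 2 and null 3. In CPM with TMM factors the null libraries (1423, 1447 and 1072) lay below the wt libraries (1756 and 2784). The groups overlapped in FPKM and on library totals, where null 1 and null 2 (1542 and 1766) exceeded wt 1 (1479). A noncoding transcript of the locus, NR_003258, took 40.2% and 41.9% of the FPKM in wt 1 and wt 2 and 17.0%, 39.3% and 37.7% in null 1, null 2 and null 3. Null 1 was the exception, and there the coding transcript NM_201616 took 62.7%, against 44.8% to 50.8% in the other 4 libraries. Without the noncoding transcript, an addition made after these values were seen, the FPKM of Gnas was 537 and 724 in wt 1 and wt 2 and 751, 653 and 492 in null 1, null 2 and null 3, so that null 1 went from near wt 1 to the highest of the 5. The locus holds overlapping and antisense transcripts and the counting strand is not given in the sources used here, so their reads cannot be told apart.

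**Figure D2:**
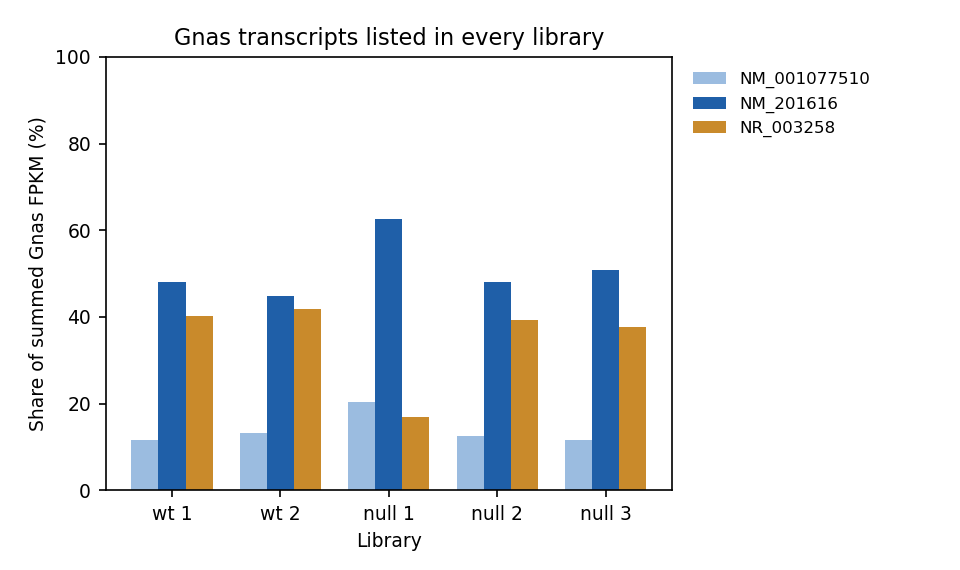
Share of the summed Gnas FPKM, in percent, held by each of the 3 transcripts listed in every library, with 1 group of bars per library. The noncoding NR_003258 took 17.0% in null 1 and between 37.7% and 41.9% in the other libraries.

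The wt libraries with and without TSH were then set side by side. With 1 library on each side there is no replicate check and no test, and the intervals given are exact 95% binomial intervals that cover counting error only. With TSH, Pde4d (log2 ratio 1.22, 0.66 to 1.80), Per1 (0.98, 0.80 to 1.16) and Gnas (0.66, 0.65 to 0.68) were higher by more than 1.5-fold, 3 of the 10 members, while 17% of the 13218 genes tested were that much higher. Genes with at most 3 counts in both libraries were given no ratio and not counted as past the fold. Nr4a1 (-0.93, -1.38 to -0.49), Crem (-0.77, -1.42 to -0.16) and Rgs2 (-0.74, -0.84 to -0.64) were lower by more than 1.5-fold, again 3 of 10, against 19.5% of all genes. Sik1 (-0.25, -0.54 to 0.03), Pde4b (-0.33, -0.70 to 0.04) and Nr4a2 (0.02, -1.01 to 1.05) were within 1.5-fold with intervals that include 0, that of Nr4a2 resting on 19 and 17 counts. The targets of the pathway therefore did not stand on one side, with Per1 higher, Nr4a1 and Crem lower and the intervals of Sik1 and Nr4a2 including 0.

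**Figure D3:**
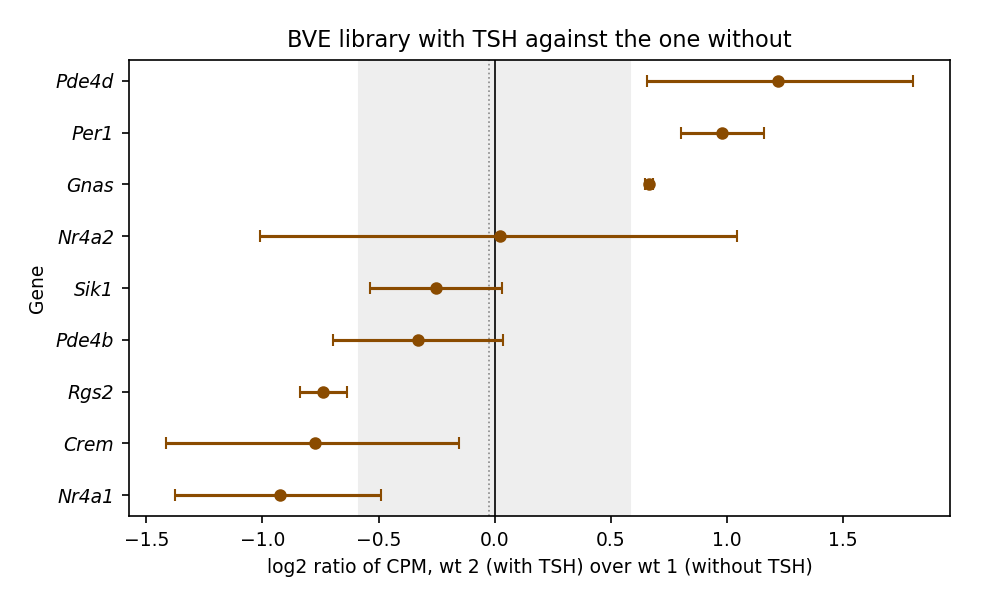
log2 ratio of CPM (TMM scaling) of wt 2, with TSH, over wt 1, without, for the 9 members above 3 counts, with exact 95% counting intervals as bars, the range within 1.5-fold shaded and the median of all genes tested as a dotted line. The points of Pde4d, Per1 and Gnas lie to the right of the shaded range and those of Nr4a1, Crem and Rgs2 to its left, with 1 library on each side.

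These ratios moved with the scaling of the libraries. Without TMM factors, relative to the library totals, 11.6% of all genes were higher and 27.8% lower by 1.5-fold, and the median log2 ratio of all genes moved from -0.02 to -0.22. This is a constant shift, so that relative to the median of all genes the members stood in both scalings at 1.24 for Pde4d, 1.00 for Per1, 0.69 for Gnas, -0.90 for Nr4a1, -0.75 for Crem and -0.71 for Rgs2. On library totals Gnas was at 0.47, under 1.5-fold, which left 2 members higher and 3 lower. With 0.1 added to the FPKM 2 members were higher and 3 lower by 1.5-fold, against 9.92% and 24.2% of all genes, and with 1 added 1 was higher and 2 were lower, against 5.55% and 13.3%. The ratio of Pde4d was 0.75 with 0.1 added and 0.215 with 1 added, under 1.5-fold, where Per1 (0.61) was the 1 member higher. At 2-fold in CPM, Pde4d was the 1 member that was higher and 0 were lower, against 7.79% and 8.86% of all genes. Vim, a mesenchymal marker, and the epithelial keratins were higher with TSH by larger amounts than Gnas, with log2 ratios of 1.40 for Vim, 1.00 for Krt8, 0.90 for Krt19, 0.84 for Krt7 and 0.71 for Krt18, and their part in the ratio of Gnas was not tested. Not every marker of these kinds did so, with ratios of -0.24 for Col1a1, -0.19 for Pdgfra, -0.06 for Cdh1 and 0.07 for Epcam. As a measure of spread between lines, the SD that the null libraries give for a difference between 2 libraries in log2 CPM was 1.16 for Nr4a1, 1.52 for Crem, 1.96 for Per1, 0.98 for Pde4d, 4.35 for Rgs2 and 0.34 for Gnas. The TSH ratio was larger than this SD for Pde4d and Gnas and smaller for Nr4a1, Crem, Per1 and Rgs2. This SD comes from different null lines, with TSH not stated for null 2 and null 3. It does not measure the spread between cultures of BVE, so the comparison decides nothing about TSH.

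Between the groups, 0 of the 10 members passed edgeR's quasi-likelihood test in either direction at an adjusted p under 0.05 (Benjamini-Hochberg over 13218 genes), and the share of all genes that passed was 0% higher and 0% lower. At an unadjusted p under 0.05 the members also numbered 0, while 1645 genes (12.4%) were higher and 804 (6.08%) were lower. DESeq2 called 8.43% of genes higher and 3.68% lower, and limma 0.00841% and 0.0421%, with 0 members called by either tool. Sik1 had a log2 fold change of 1.93 ± 1.15 (here and below ± the standard error) and an adjusted p of 0.397 from edgeR, and 0.55 without null 1. Pde4d had 1.70 ± 0.78, Nr4a2 1.44 ± 0.86, Nr4a1 1.20 ± 0.74 and Pde4b 1.04 ± 0.67, with adjusted p-values from edgeR of 0.296, 0.400, 0.414 and 0.427. Crem and Per1 had 0.38 ± 0.91 and 0.35 ± 0.79, differences smaller than their errors. On the other side, Rgs2 had -2.51 ± 1.53 and Gnas -0.79 ± 0.40, with adjusted p-values from edgeR of 0.406 and 0.329. Without null 2 the value of Rgs2 was -6.31, and on log2(FPKM + 0.1) that of Gnas was -0.21. Among the null libraries alone, the SD of log2 CPM was 2.21 for Sik1, 1.39 for Per1 and 3.07 for Rgs2. In CPM null 2 lay apart from null 1 and null 3 for these genes and also for Nr4a1 and Pde4d.

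**Figure D4:**
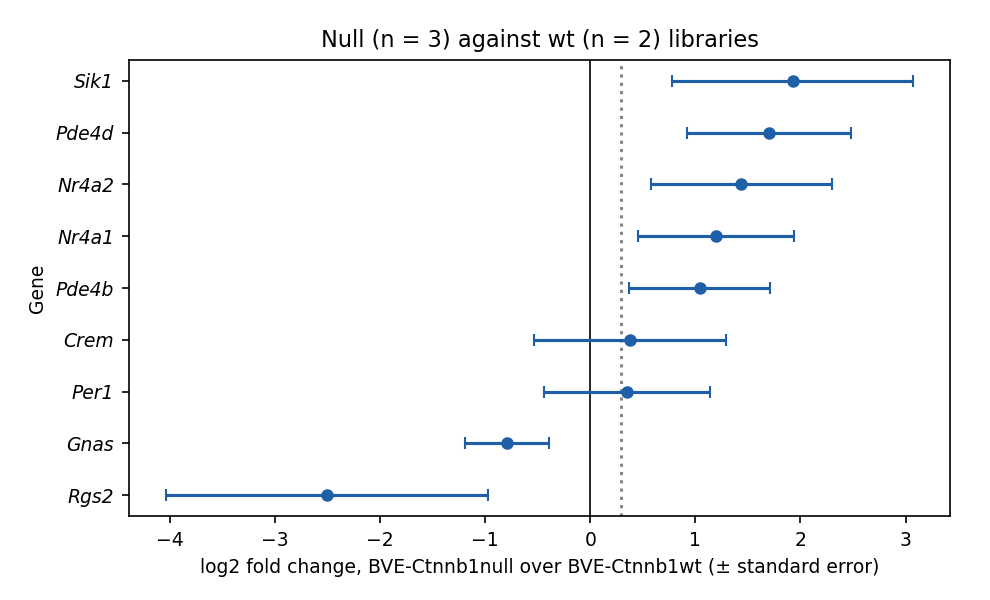
log2 fold change of the null over the wt libraries from edgeR for the 9 members above 3 counts, with bars of 1 standard error and the median of all genes tested as a dotted line. The points run from -2.51 for Rgs2 to 1.93 for Sik1, the bars of Crem and Per1 include 0, and 0 members passed an adjusted p under 0.05.

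The median log2 fold change was 1.12 over the 10 members and 1.04 over the 9 above 3 counts, against 0.29 over all 13218 genes. The latter was 0.61 on log2(FPKM + 0.1) and 0.21 in DESeq2, and the abundance of the top genes differed between the groups, with the 10 most abundant genes taking 14.3% and 15.0% of counts in wt 1 and wt 2 and 6.9% to 8.0% in the null libraries. Relative to the median of all genes, Rgs2 was at -2.80 and Gnas at -1.08, and Pde4d at 1.41, Sik1 at 1.63, Nr4a2 at 1.15, Nr4a1 at 0.91 and Pde4b at 0.75. Crem and Per1 were at 0.08 and 0.06, level with the genes as a whole. In CPM the null libraries were separated upward, meaning that each of them exceeded both wt libraries, for Nr4a2, Pde4b and Pde4d, 3 of 10 members, and for 22.6% of all genes tested. They were separated downward for Rgs2 and Gnas, 2 of 10, and for 17.2% of all genes. In FPKM, 4 of 10 (with Nr4a1 added) were separated upward against 35.9% of genes and 0 downward against 7.23%, and on library totals the same 4 were separated upward against 36.2% of genes and 0 downward against 7.43%. The separation of Rgs2 and Gnas was thus seen with TMM factors and on neither other scale. For Gnas a two-sided exact permutation test over the 5 libraries gave p = 0.1, the smallest that 2 libraries against 3 allow, and the same test gave 0.2 for Nr4a2, Pde4b, Pde4d and Rgs2 and between 0.3 and 1.0 for Nr4a1, Sik1, Crem and Per1. Without null 2, Nr4a1, Per1 and Sik1 joined the genes whose null libraries lay above both wt libraries, 6 members against 30.3% of genes. Without null 3, the library with Dcn and Thy1, the counts were 3 and 2, against 28.2% and 23.5% of genes.

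The 2 libraries that share the label without TSH, wt 1 and null 1, were also compared, with no replicate check. Null 1 was more than 1.5-fold higher for 6 members, against 38% of genes, and lower for 2, against 30.9%. The log2 ratio of CPM was 2.94 (2.75 to 3.14) for Sik1, 2.70 (2.22 to 3.21) for Pde4d, 1.73 (1.00 to 2.54) for Nr4a2, 1.51 (1.36 to 1.68) for Per1, 1.16 (0.88 to 1.45) for Nr4a1 and 0.65 (0.37 to 0.94) for Pde4b. It was -6.98 (-7.64 to -6.39) for Rgs2, -1.30 (-1.94 to -0.68) for Crem and -0.30 (-0.32 to -0.28) for Gnas. The direction of Gnas turned with the scaling, to 0.06 on library totals and 0.012 on log2(FPKM + 0.1). Null 1 and wt 1 also differed in epithelial and mesenchymal markers, as given above, and the part of these in the ratios was not tested.

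The wider pathway was described by a list of 83 other genes in 9 roles, all listed, of which 65 were tested and 7 had at most 3 counts in every library. By edgeR 0 of the 65 passed an adjusted p under 0.05, and 19 were higher and 0 lower at an unadjusted p under 0.05, beside 12.4% and 6.08% of all genes. DESeq2 called 14 of them higher and 0 lower, beside 8.43% and 3.68% of all genes. Their median log2 fold change was 0.92, beside 0.29 over all genes. Without null 3 it was 0.40, beside 0.161 over all genes in the same fit. It was 1.33 without wt 1, beside 0.382, and 0.32 with the replicate number as a block, beside 0.097. In CPM 25 were separated upward and 6 downward, or 38.5% and 9.2% of those tested, beside 22.6% and 17.2% of all genes, and on library totals 33 and 3, beside 36.2% and 7.43%. Upward separation was most frequent in the group of the CREB family, its coactivators and the kinases Sik2 and Sik3, which like Sik1 hold coactivators back. There 8 of 9 genes were separated in CPM and 9 of 9 in FPKM, against the 22.6% and 35.9% of all genes given above. This group was the highest of the 9 roles, in lists drawn up with earlier results known, so these counts carry no test. Of the 13 other cAMP-induced genes, 2 were separated upward and 1 downward in CPM, beside 22.6% and 17.2% of all genes. In FPKM these counts were 5 and 0, beside 35.9% and 7.23%. Ep300, an acetyltransferase that CREB recruits, had an FPKM of 0.17 and 0.31 in wt 1 and wt 2 and 3.25, 3.31 and 2.01 in null 1, null 2 and null 3 (log2 fold change 2.95 ± 0.66, adjusted p = 0.180 from edgeR and 0.000438 from DESeq2). Crtc3, a coactivator that moves to the nucleus when cAMP rises, had 0.45 and 0.23 in wt 1 and wt 2 and 5.15, 2.09 and 2.02 in null 1, null 2 and null 3 (log2 fold change 2.67 ± 0.80, adjusted p = 0.195 from edgeR and 0.0124 from DESeq2). Atf1, a close relative of CREB, had a log2 fold change of 1.68, and Sik2 had 1.34. Ep300 and Crtc3 were thus among the genes that DESeq2 called, while Atf1 and Sik2 were not, with adjusted p-values of 0.170 and 0.165 from DESeq2. For these 4 genes the null and wt libraries did not overlap, although for Atf1 null 1 (8.05 CPM) lay nearer to wt 1 (6.44 CPM) than to null 3 (33.87 CPM). For Sik1 and Per1, by contrast, the groups overlapped through null 2.

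**Figure D5:**
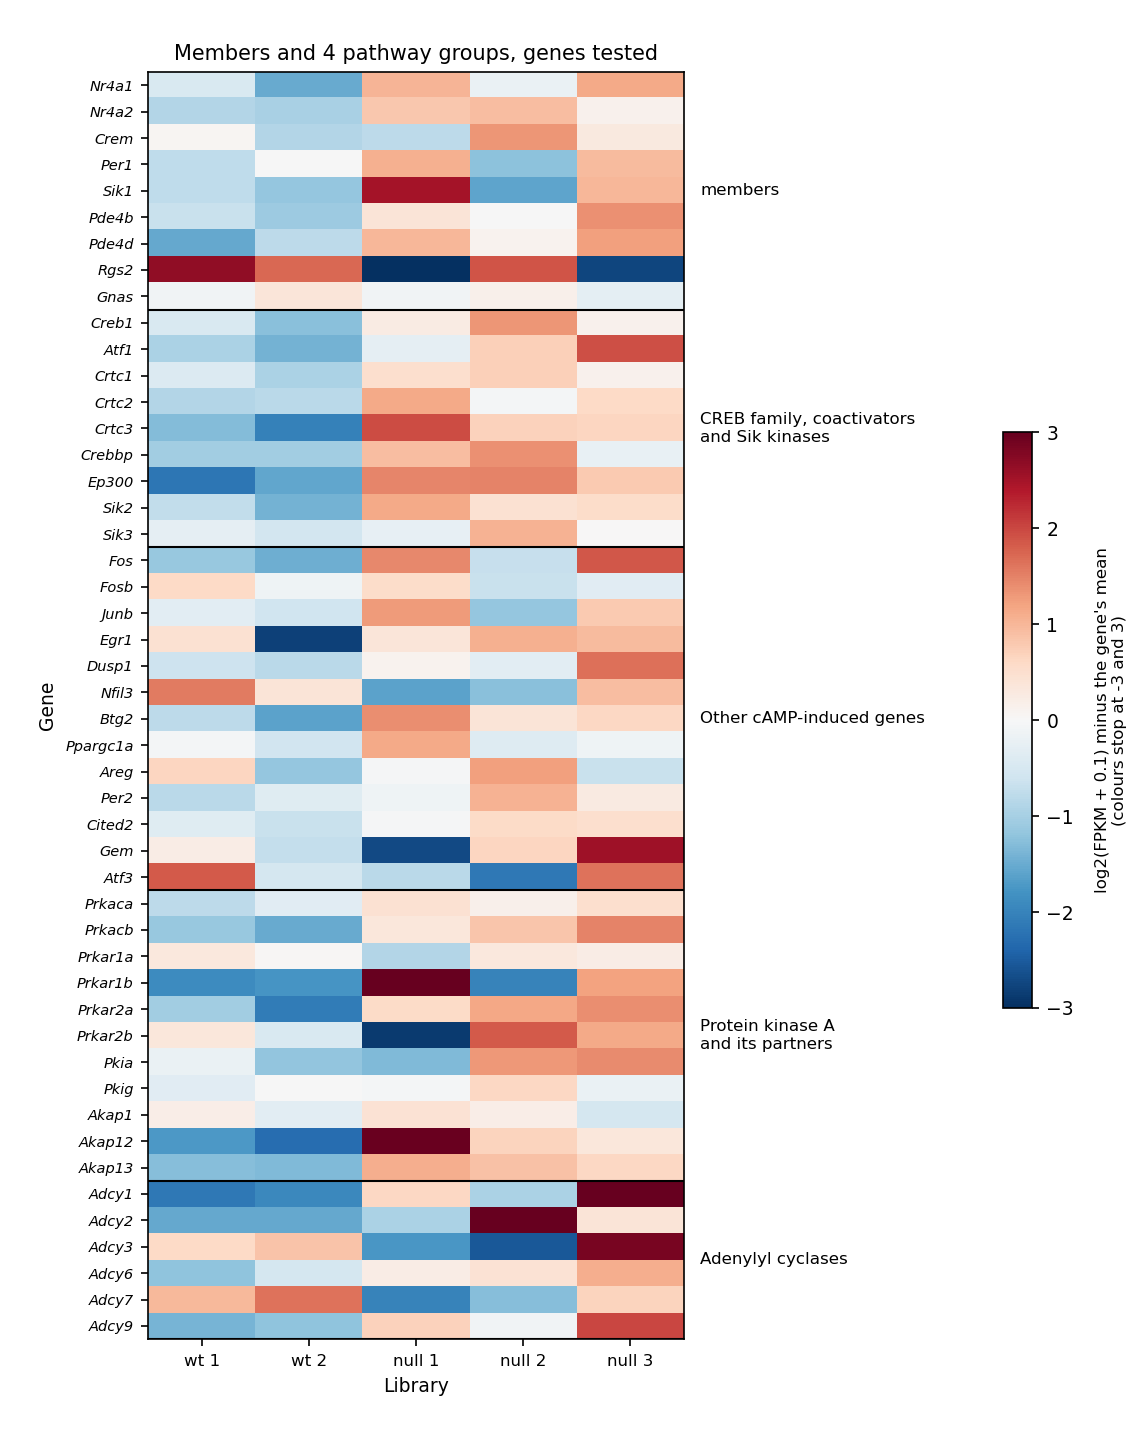
log2(FPKM + 0.1) minus each gene's mean over the 5 libraries for the 9 members above the count limit and the tested genes of 4 pathway groups, with red above and blue below the mean and colors that stop at -3 and 3. The CREB family, its coactivators and the Sik kinases are blue in both wt libraries, and Rgs2 is dark blue in null 1 and null 3 and red in the other libraries.

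Of the 11 tested genes of protein kinase A and its partners, 4 were separated upward and 1 downward in CPM, and the shares of all genes, 22.6% and 17.2%, apply to each count of this kind below. Prkar2a, a regulatory subunit, had an FPKM of 1.48 and 0.66 in wt 1 and wt 2 and 4.74, 7.20 and 8.42 in null 1, null 2 and null 3. Akap12, an anchor of the kinase, had 1.83 and 1.21 in wt 1 and wt 2 and 49.77, 9.94 and 7.97 in null 1, null 2 and null 3. Both were higher in each null library than in either wt library, as were Akap13 (log2 fold change 2.12) and Prkacb (1.74). Prkar1a, another regulatory subunit, was lower in CPM with TMM factors only, with a log2 fold change of -0.80. Of 6 adenylyl cyclases, the enzymes that make cAMP, Adcy1, Adcy2, Adcy6 and Adcy9 were separated upward and Adcy7 downward. Adcy6, the most abundant of these, had an FPKM of 3.46 and 5.61 in wt 1 and wt 2 and 9.57, 11.07 and 17.34 in null 1, null 2 and null 3 (log2 fold change 0.86 ± 0.50, adjusted p = 0.391 from edgeR). Adcy1 had 0.03 and 0.05 in wt 1 and wt 2 and 0.78, 0.20 and 12.28 in the null libraries, and Adcy9 had 0.12 and 0.15 against 0.83, 0.43 and 2.20. Adcy2 had 0 counts in both wt libraries and 7, 446 and 35 in null 1, null 2 and null 3. Adcy7 had an FPKM of 0.85 and 1.39 in wt 1 and wt 2 and 0.02, 0.10 and 0.66 in null 1, null 2 and null 3. Of 9 phosphodiesterases 2 were separated upward. One was Pde7a (log2 fold change 1.17), and the other, Pde8b, had 0 counts in both wt libraries and 3 in null 1, no more than a count of 0 allows, so that null 1 was not shown to exceed them. Of the 9 G protein genes and regulators 3 were separated upward, among them Gnai3 (2.30) and Gnaq (1.81), and Gnb1 was lower in CPM with TMM factors only (-0.44). Rapgef3, a cAMP sensor outside protein kinase A, had a log2 fold change of -1.28. The thyroid targets of TSH were scarce, with 2 of 9 tested, and Tg (thyroglobulin) had an FPKM of 0.80 and 0.86 in wt 1 and wt 2 and 0.04, 0.51 and 0.34 in null 1, null 2 and null 3.

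In the pair with and without TSH, 58 of the 65 pathway genes had a ratio, 10 were higher and 16 lower by 1.5-fold, or 15.4% and 24.6% of the 65, beside 17% and 19.5% of all genes tested counted in the same way. Among 13 other genes known to be induced by cAMP, 7 were lower and 1 was higher with TSH. Of the lower genes, Ppargc1a had 20 and 8 counts and an interval of -2.53 to 0.11 that includes 0. Egr1, an early-response transcription factor, had an FPKM of 8.28 without and 0.77 with TSH (log2 ratio -3.23, -3.59 to -2.88), while the null libraries lay between 7.70 and 12.67. Atf3, a stress-induced transcription factor, had 20.12 without and 3.81 with TSH (-2.20, -2.41 to -2.00). For Areg, a ligand of the EGF receptor, these values were 53.93 and 15.49 (-1.60, -1.74 to -1.47), and for Nfil3, a transcriptional repressor, 58.46 and 26.02 (-0.97, -1.06 to -0.89). These 4 genes, like Nr4a1, Crem and Rgs2, were thus lower in the library with TSH. In the other direction Adcy7 (0.94, 0.65 to 1.24) and Adcy6 (0.90, 0.75 to 1.04) were higher with TSH, as were Gnai2 (0.88), Prkaca (0.66), Pde1b (0.83, 0.24 to 1.43) and Ep300 (1.06, 0.53 to 1.60). On library totals Prkaca was at 0.47, under 1.5-fold, as was Gnas. Adcy1, also counted among the 10, had a ratio of 0.97 on 11 and 19 counts with an interval of -0.17 to 2.19 that includes 0. The intervals of Gnai1, on 0 and 4 counts, and of Pde4c, on 2 and 4, also include 0. Pde1a (-2.44), Slc5a5 (-1.33) and Rgs16 (-1.16) were lower. So were Prkar2a (-0.96), Pkia (-0.83) and Prkar2b (-0.61) of the protein kinase A group and Crtc3 (-0.76) and Creb1 (-0.72) of the CREB group. Each of these values compares 1 library with 1 other, and differences of that size between 2 cultures of 1 line without a change in TSH were not measured.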

How the data were processed

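Libraries were grouped by their labels (2 BVE-Ctnnb1wt, 3 BVE-Ctnnb1null), and the labels do not state whether they are separate cultures, so p-values measure only the spread between these libraries. The authors deposited, for each RefSeq transcript, an estimated count of reads that may be fractional. The authors also deposited an FPKM value, listed from 0.01 upward. The aligner, counting program and build are not given in the sources used here. Both values were summed over transcripts per NCBI gene number and estimated counts were rounded. Symbols came from the RefSeq table of GRCm38.p6 (17866 of 17923 genes).

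Groups were compared with edgeR 4.0.16 in R 4.3.3 (TMM, filterByExpr with the 10 members kept, glmQLFit, glmQLFTest, Benjamini-Hochberg adjustment, threshold 0.05). Alternatives were DESeq2 1.42.0, no filter, a minimum of 10 counts in each library, limma 3.58.1 on log2(FPKM + 0.1, 0.01 or 1) where 2 libraries reached an FPKM of 0.5, the omission of 1 library at a time and a replicate block. These methods were tested on simulated data in which 200 genes had been changed. The simulated libraries varied less within a group than the real ones, so this does not show how the methods perform here. Pairs of libraries were compared by ratios of CPM (Python 3.11.15, scipy 1.17.1).

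The members and gene lists were chosen with earlier results of these data known. Pathway genes were named where they reached 10 CPM in a library and met 1 of 2 conditions, at most 4 per role and direction. They were past 1.5-fold in the TSH pair or separated between the groups in CPM. Some genes under 10 CPM, such as Adcy9, were named as well. Nearest patterns were the 5 genes closest to the member of widest range. The values of 1 listed gene are not reported here.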

Additional observations from a re-analysis of the deposited data

How the results depend on the processing

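Of the members, 0 were called under every alternative. Over all genes, DESeq2 called 1114 higher and 487 lower. With limma 1 was called higher with each pseudocount, and 5, 3 and 7 lower with 0.1, 0.01 and 1 added to the FPKM. The main edgeR fit called 0 in each direction. Without a filter edgeR called 4 lower, and with at least 10 counts in every library 1 lower. DESeq2 called 14 pathway genes higher. The log2 fold changes of 2 members changed sign. Leaving out 1 library at a time, Crem lay between -0.395 and 0.737, with -0.05 without wt replicate 2 and its lowest value without null replicate 2. Per1 lay between -0.133 and 0.833, with its lowest value without wt replicate 1 and -0.12 without null replicate 1, and was at -0.24 with the replicate number as a block. The correlation of deviations was -0.112 for replicate 1 and -0.108 for replicate 2. With 2 wt libraries the deviations of wt 1 and wt 2 are mirror images, so these values cannot decide whether the numbers pair the libraries. The block, which left 0 calls, changed no other sign and no call of a member. With 1 library left out, other members moved by over 1.5 times without changing sign, Sik1 to 0.55 without null replicate 1, Rgs2 to -6.31 without null replicate 2, Pde4b to 0.51 without null replicate 3, Nr4a1 to 0.72 and Gnas to -0.51 without wt replicate 2. Pde4d exceeded Sik1 without null replicate 1 (1.505 against 0.553) and without wt replicate 2 (2.345 against 1.704). It also did so on log2(FPKM + 0.1) (1.94 against 1.60), on log2(FPKM + 0.01) (2.27 against 1.63) and with the block (1.499 against 0.896). The causes were not tested.

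In the TSH pair, with 1 added to the FPKM 1 member was higher and 2 were lower past the fold, beside 5.55% and 13.3% of all genes. At a fold of 2 these counts were 1 and 0, beside 7.79% and 8.86%. Of the 65 pathway genes 4 were higher and 19 lower with 0.1 added, beside 9.92% and 24.2% of all genes. With 1 added 1 was higher and 9 were lower, and at a fold of 2 the counts were 2 and 8, beside the shares just given. The following alternatives were chosen after seeing the data. In FPKM 0 members and 3 pathway genes were separated downward, beside 7.23% of all genes, and 32 of 65 pathway genes upward, beside 35.9%. On library totals 0 members and 3 pathway genes were separated downward, beside 7.43%, and 33 pathway genes upward, beside 36.2%. Leaving out 1 library at a time gave 3 to 6 members separated upward (6 without null replicate 2), 8 to 11 pathway genes downward and 0 to 1 genes of the CREB group downward, beside 28.2% to 32.6% of all genes upward and 22.3% to 26.8% downward. Of the 13 other cAMP-induced genes 0 were higher and 7 lower with TSH when 0.1 was added to the FPKM, beside 9.92% and 24.2% of all genes. At a fold of 2 the counts were 0 and 4, beside 7.79% and 8.86%. Of 185 alternative values for single genes and the pathway median, 10 had another sign. These were 5 for Crem and Per1, given above, 2 for Gnas in null 1 over wt 1 (-0.30 against 0.06 on library totals and 0.012 on log2(FPKM + 0.1)) and 3 for Nr4a2 with over without TSH (0.02 against -0.17, -0.10 and -0.02 on library totals and with 0.1 and 1 added to the FPKM). Genes with few counts, such as Nr4a2, Crem and Tshr, are limited by depth.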
